A study of Mus musculus with 6 samples.

Results

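The genes described here are 43 mouse genes of DNA replication and S phase, the stage of the cell cycle in which the genome is copied. They were matched by symbol to a list drawn up with earlier results of these data known, and all 43 were found among the 55487 genes of the deposited count table. RNA of whole dorsal skin at day 2 was sequenced in 6 libraries. The 3 libraries of the first group came from skin given DPCP with clodrosome, and the 3 of the second from skin given DPCP with encapsome. The treatment labels spell the first agent Codrosome. DPCP (diphenylcyclopropenone) is a contact sensitiser and was given to both groups, so no library shows untreated skin. Clodrosome is a clodronate liposome that kills macrophages that take it up, and encapsome is the matching liposome without the drug. The series title places the comparison in hair regeneration induced by contact hypersensitivity and concerns the role of macrophages there. Strain, age, sex and the number of animals per library are not given in the labels, so the p-values measure the spread between these libraries, which may be technical.

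Replication begins when the origin recognition complex, Cdc6 and Cdt1 load the ring of Mcm2 to Mcm7 onto DNA in G1. In S phase Cdc45 and the GINS complex turn that ring into the active helicase, and polymerase alpha with primase, polymerase delta and polymerase epsilon then copy the strands with the Pcna clamp and the ligase Lig1. Cyclin E with its kinase and the E2F transcription factors control the entry into S phase. In skin the cells that copy their DNA are mostly basal keratinocytes, cells of growing hair follicles and, in inflamed skin, dividing immune and stromal cells.

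Transcription of many S phase genes is known to be driven by E2F factors through sites close to the gene start, and the promoters of several of the genes are shown for that reason. RefSeq promoters of 300 bases (GRCm38.p6, 250 bases before to 50 bases after the gene start) were found for 35 of the 43 genes. The letters TTTCCCGC or TTTGGCGC, variants of the E2F site, were searched on both strands. They were found in promoters of 12 of the 35 genes (34.3%), against 404 of 17492 protein-coding genes (2.31%) and 0 of 22 genes of a mitosis list. The 12 genes were Mcm3, Mcm5, Mcm6, Mcm7, Cdc6, Cdt1, Gins3, Pola1, Pold1, Pole2, Rfc3 and Hells. Of the 14 matches, 9 began within 100 bases of the gene start, a window that covers much of the 300 bases searched. Whether matches gather near the start was not tested. The promoters of 5 of these genes that were called higher in clodrosome skin are printed below in the direction of the gene, with the matched letters of either strand in capitals. Mcm3 (chr1:20820263-20820562, minus strand) has both variants after its start, the first beginning 20 bases and the second 39 bases downstream. Mcm6 (chr1:128359656-128359955, minus strand) has TTTGGCGC at 2 places, and one of its 2 matches begins at base -47 from the start. Mcm7 (chr5:138171834-138172133, minus strand) has 2 RefSeq starts, and the promoter shown is the one with a match. Cdc6 (chr11:98907901-98908200, plus strand) has its match at base -138 and Hells (chr19:38930740-38931039, plus strand) at base -62. All these distances are from RefSeq starts. In the annotation used for counting, Cdc6 and Mcm7 start further upstream, so their printed stretches lie inside those genes.
Mcm3: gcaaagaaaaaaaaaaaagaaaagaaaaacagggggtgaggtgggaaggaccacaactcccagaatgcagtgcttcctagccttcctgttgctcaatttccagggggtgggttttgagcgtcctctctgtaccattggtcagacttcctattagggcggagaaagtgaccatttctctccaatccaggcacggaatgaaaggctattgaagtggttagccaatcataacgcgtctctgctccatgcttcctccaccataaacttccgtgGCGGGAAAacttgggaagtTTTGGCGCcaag
Mcm6: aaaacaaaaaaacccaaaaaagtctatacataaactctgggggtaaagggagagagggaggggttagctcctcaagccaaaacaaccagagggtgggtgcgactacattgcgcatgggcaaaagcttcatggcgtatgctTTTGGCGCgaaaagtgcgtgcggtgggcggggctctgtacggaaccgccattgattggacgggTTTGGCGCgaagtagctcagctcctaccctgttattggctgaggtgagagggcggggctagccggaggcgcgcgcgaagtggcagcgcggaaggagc
Mcm7: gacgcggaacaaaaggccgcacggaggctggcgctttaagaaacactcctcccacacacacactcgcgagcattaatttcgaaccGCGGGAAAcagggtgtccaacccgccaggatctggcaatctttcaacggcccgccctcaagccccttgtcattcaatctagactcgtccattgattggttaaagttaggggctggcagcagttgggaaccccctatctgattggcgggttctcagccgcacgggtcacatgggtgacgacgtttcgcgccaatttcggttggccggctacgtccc
Cdc6: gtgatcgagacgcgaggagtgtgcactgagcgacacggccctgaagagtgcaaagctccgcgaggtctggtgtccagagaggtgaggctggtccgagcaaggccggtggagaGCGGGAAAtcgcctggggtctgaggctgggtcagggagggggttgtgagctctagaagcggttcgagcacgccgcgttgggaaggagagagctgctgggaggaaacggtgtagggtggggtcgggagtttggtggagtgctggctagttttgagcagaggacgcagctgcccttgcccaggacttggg
Hells: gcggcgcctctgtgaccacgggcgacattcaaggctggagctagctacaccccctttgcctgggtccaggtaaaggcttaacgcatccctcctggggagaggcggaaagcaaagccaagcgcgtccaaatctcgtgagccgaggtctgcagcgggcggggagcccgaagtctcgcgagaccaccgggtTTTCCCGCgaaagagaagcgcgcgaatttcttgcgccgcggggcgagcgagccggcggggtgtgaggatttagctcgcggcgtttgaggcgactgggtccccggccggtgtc

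The letters were found in 8 of the 21 called genes with a promoter entry (38.1%) and in 4 of the 14 genes that were not called (28.6%), a difference that was not tested. CCAAT, the letters bound by NF-Y, was present in 19 of the 35 promoters (54.3%), against 18 of 22 mitosis genes (81.8%) and 42.3% of protein-coding promoters. TTTGAA, the core of the CHR element of mitotic genes, was present in 4 of the 35 (11.4%), against 17 of 22 mitosis genes (77.3%) and 18.5% of protein-coding promoters. CCAAT and TTTGAA were also searched on both strands, and none of these motifs contains another. A match of letters is a description of the sequence and does not show that a factor binds there.

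The libraries held 116965654, 30605600 and 35566351 counts in clodrosome skin and 31566284, 32066256 and 26649396 in encapsome skin, of which the 43 genes took 73019 to 287595 and 50401 to 60422 counts. A list of 6 macrophage genes was lower in clodrosome skin for 6 of 6 genes, with summed levels of 1178, 491 and 973 CPM in clodrosome skin, against 3183, 2910 and 2656 CPM in encapsome skin. Genes of rRNA took 0.355%, 0.796% and 0.334% of the counts in clodrosome libraries A, B and C, against 0.481%, 0.845% and 0.788% in encapsome libraries A, B and C. The labels name no batch. All levels are normalised read counts (CPM), scaled with TMM factors to the size of each library, and fold changes are log2 of clodrosome over encapsome with their standard error (SE) from edgeR's quasi-likelihood test. A gene was called where its p, adjusted over the 17988 genes tested, was under 0.05.

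Replication genes were higher as a group in clodrosome skin. Of the 43 genes, all of which passed the filter on low counts, 23 were called higher and 0 lower, while 9.41% of all genes tested were called higher and 13% lower. At an unadjusted p under 0.05, 28 were higher and 1, the transcription factor E2f1, was lower. DESeq2 also called 0 lower. The fold change was above 0 for 41 genes, the exceptions being E2f1 and the clamp loader subunit Rfc2, against 51.1% of all genes. In 29 of the 43 genes every clodrosome library lay above every encapsome library, and in 1, E2f1, every one lay below (19.5% and 20.7% of all genes). The median log2 fold change of the 43 genes was 0.32, against 0.01 over all genes tested, and the largest was 0.64, for the polymerase Pole. Their summed level was 2407, 2402 and 2261 CPM in clodrosome skin, against 1951, 1842 and 1919 CPM in encapsome skin, a ratio of 1.24. The 3 clodrosome sums lay above the 3 encapsome sums, but 3 libraries against 3 cannot give an exact two-sided permutation p under 0.1. The levels are shares of all counts in RNA of whole skin. More cells in S phase, more RNA of these genes per cell and less RNA from other cells cannot be told apart.

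**Figure D1:**
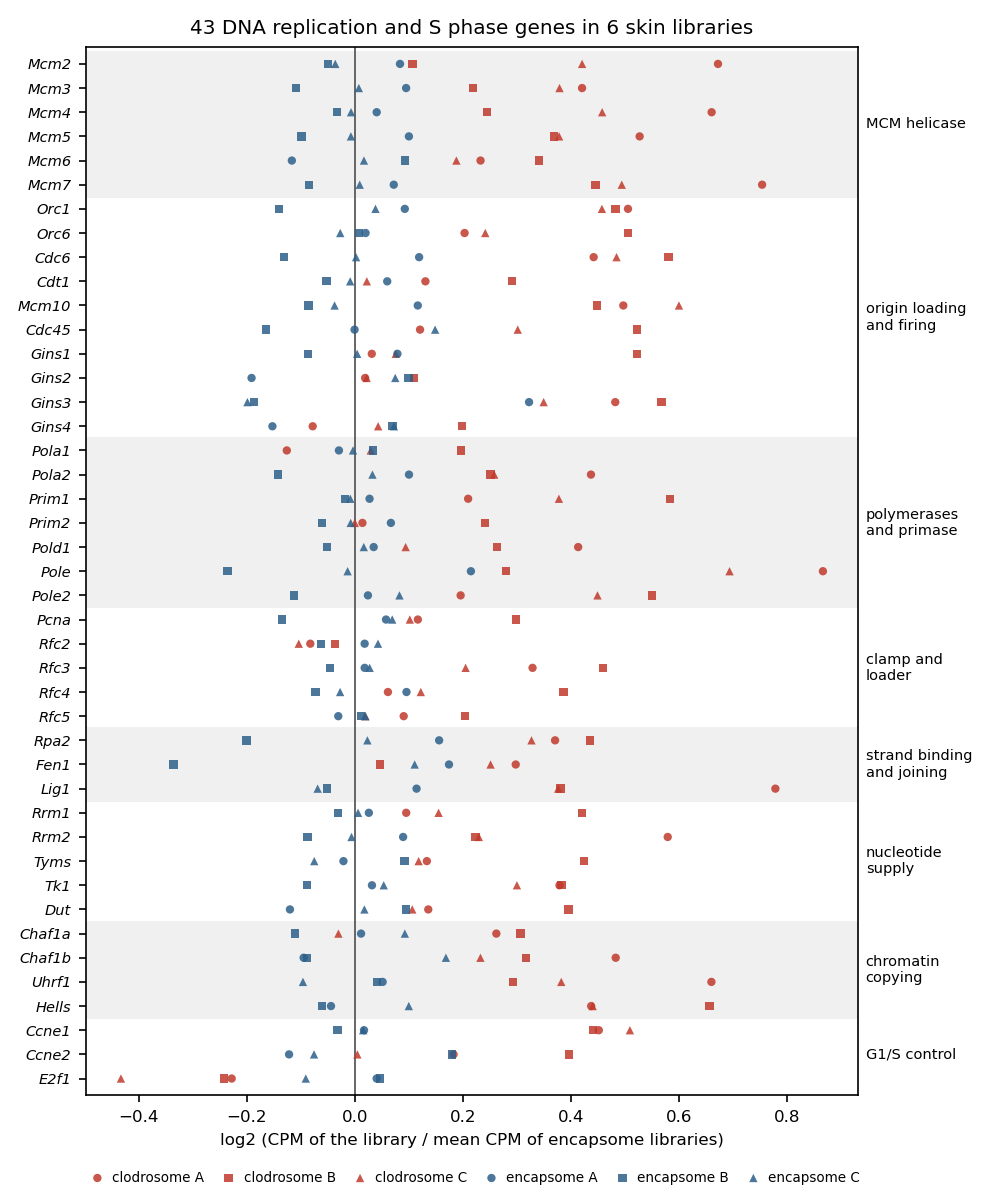
Level of each of the 43 genes in the 6 libraries, as log2 of its CPM over the mean CPM of the encapsome libraries, in rows grouped by role; red points are clodrosome libraries, blue points encapsome libraries, and the shapes mark libraries A, B and C. Red points lie above all blue points in 29 rows and below all of them in 1, E2f1.

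The 6 subunits of the MCM helicase, the ring that unwinds DNA at the fork, were all called higher, with a median log2 fold change of 0.42. Summed over the ring, the level was 748, 637 and 673 CPM in clodrosome skin, against 533, 502 and 517 CPM in encapsome skin, a ratio of 1.33. Mcm7 (chr5:138164583-138172422, GRCm38, as are the gene positions that follow) had the smallest p of the 43 genes, with 127, 102.5 and 106 CPM in clodrosome skin, against 79.1, 71 and 75.8 CPM in encapsome skin. All 3 clodrosome libraries were higher than any encapsome library. The log2 fold change of Mcm7 was 0.57 ± 0.094 (SE), with an edgeR adjusted p of 0.00278. Exons of other genes cover 12.6% of its exonic bases, where reads are not counted. Within the ring Mcm5 (chr8:75109569-75128439) had the next smallest p, with 152, 136 and 137 CPM in clodrosome skin, against 113, 98.5 and 105 CPM in encapsome skin. The groups of Mcm5 did not overlap, and its log2 fold change was 0.43 ± 0.0808 (edgeR adjusted p = 0.00549). Mcm4 had 129, 96.8 and 112 CPM in clodrosome skin, against 84.0, 79.8 and 81.3 CPM in encapsome skin, with clodrosome library A highest and clodrosome library B nearest to encapsome skin. Its log2 fold change was 0.47 ± 0.102 (edgeR adjusted p = 0.0107).

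Mcm6 was the subunit with the smallest difference. It had 118, 127 and 114 CPM in clodrosome skin, against 92.7, 107 and 101.7 CPM in encapsome skin. The groups did not overlap, and encapsome library B came closest to clodrosome skin. The log2 fold change of Mcm6 was 0.25 ± 0.0797 (edgeR adjusted p = 0.0476), and the call was lost without any one of the 6 libraries (adjusted p from 0.0639 to 0.155). In those fits its log2 fold change was 0.198 to 0.303. Here and below, a fit with fewer libraries can lose a call for that reason alone. For Mcm3, 123, 107 and 119 CPM in clodrosome skin stood against 98.1, 85.2 and 92.3 CPM in encapsome skin. All clodrosome libraries of Mcm3 were above all encapsome libraries, with a log2 fold change of 0.34 ± 0.0834 (edgeR adjusted p = 0.0176). That call was lost without clodrosome library A (adjusted p = 0.0521) or C (0.0763) and without encapsome library B (0.0803) or C (0.0631). Mcm2 had 99.3, 67.1 and 83.4 CPM in clodrosome skin, against 66.05, 60.2 and 60.8 CPM in encapsome skin. The lowest clodrosome library, B, lay just above the highest encapsome library, A. The log2 fold change of Mcm2 was 0.42 ± 0.127 (edgeR adjusted p = 0.0421). It was 0.27 without clodrosome library A (adjusted p = 0.110), and the call was lost without each of the other libraries except clodrosome B (adjusted p from 0.0696 to 0.136).

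Levels per length allow only a rough comparison of the subunits, because the length is that of all annotated exons and not of the transcript made. It was 6956 bases for Mcm2 and 3993 for Mcm5, so the order of the subunits depends on the annotation. In FPKM (here the CPM per kilobase of exonic bases not shared with another gene), Mcm5 averaged 35.5 in clodrosome skin and 26.4 in encapsome skin and Mcm2, the lowest subunit, 11.97 in clodrosome skin and 8.96 in encapsome skin. The order below Mcm5 was not the same in the 2 groups: Mcm7 averaged 28.9 FPKM in clodrosome skin and 19.5 FPKM in encapsome skin, while Mcm6 averaged 25.7 FPKM in clodrosome skin and 21.6 FPKM in encapsome skin. Mcm7 took 18.3%, 17.3% and 16.98% of the summed FPKM of the ring in clodrosome skin, against 16.02%, 15.4% and 15.8% in encapsome skin, so that its share was higher in every clodrosome library. The share of Mcm6 was 14.1%, 17.8% and 15.2% in clodrosome skin, against 15.6%, 19.2% and 17.6% in encapsome skin, and those groups overlap. Mcm2 held 7.24% in clodrosome skin and 7.25% in encapsome skin on average.

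**Figure D2:**
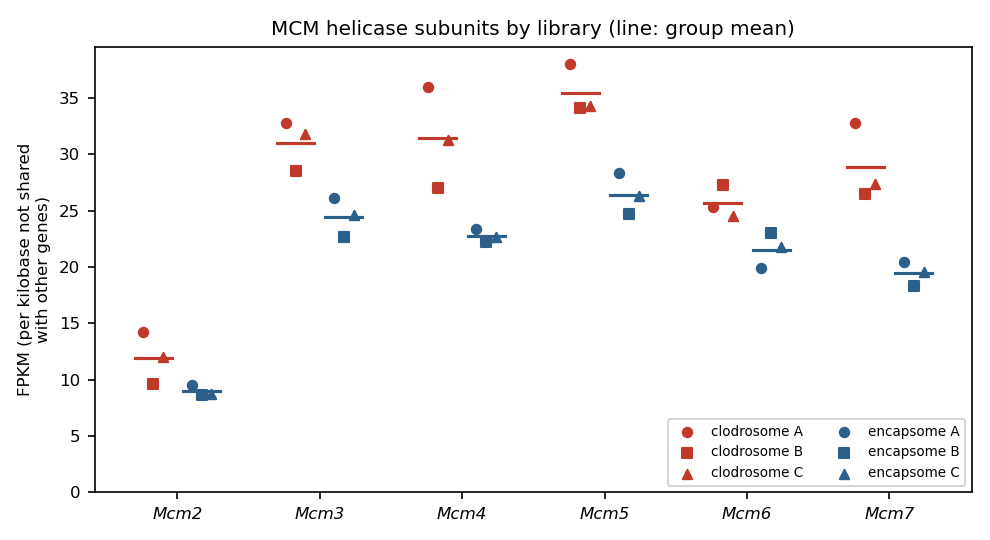
FPKM of the 6 MCM helicase subunits in each library, clodrosome in red to the left and encapsome in blue to the right, with lines at the group means and shapes for libraries A, B and C. For each subunit the 3 red points lie above the 3 blue points. By FPKM, Mcm5 is the highest subunit and Mcm2 the lowest in both groups, an order that depends on the annotated exon length.

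Of the 10 genes that load or fire origins, 4 were called higher (Orc1, Orc6, Cdc6 and Mcm10), none lower, and the median log2 fold change was 0.32. Mcm10 (chr2:4989714-5012791), which helps to activate the loaded helicase, had 31.6, 30.6 and 34.0 CPM in clodrosome skin, against 24.3, 21.1 and 21.9 CPM in encapsome skin. Its groups were well apart, with a log2 fold change of 0.52 ± 0.0871 (edgeR adjusted p = 0.00316). Cdc6 (chr11:98907801-98923940), the loader of the ring, had 16.1, 17.7 and 16.6 CPM in clodrosome skin, against 12.9, 10.8 and 11.9 CPM in encapsome skin. The 3 clodrosome values again exceeded every encapsome value, with a log2 fold change of 0.50 ± 0.105 (edgeR adjusted p = 0.00906). Orc1, the largest subunit of the origin recognition complex, had a log2 fold change of 0.48 ± 0.114 (edgeR adjusted p = 0.0149), and its call was lost without encapsome library B (adjusted p = 0.0637). Orc6, the smallest subunit, had a log2 fold change of 0.32 ± 0.0942 (edgeR adjusted p = 0.0383), and its call was lost without each library except clodrosome A (adjusted p from 0.0540 to 0.116). Neither Orc1 nor Orc6 had a clodrosome library below an encapsome library.

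Cdt1, the partner of Cdc6 in loading, was not called, with a log2 fold change of 0.15 (95% interval -0.07 to 0.37) and overlapping groups. Cdc45 had a log2 fold change of 0.32 with an interval of 0.04 to 0.60 that leaves out 0, but it did not pass the adjustment. The 4 GINS subunits, which form one complex, were not called by edgeR on all 6 libraries. Gins2 had 14.98, 15.95 and 15.01 CPM in clodrosome skin, against 12.9, 15.8 and 15.6 CPM in encapsome skin. Only encapsome library A stood below the rest, and the log2 fold change of Gins2 was 0.05 (95% interval -0.19 to 0.29). It was -0.04 without encapsome library A, and 67.3% of the exonic bases of Gins2 are shared with another gene, so its count rests on the remainder. Gins4 had 26.6, 32.2 and 28.9 CPM in clodrosome skin, against 25.3, 29.5 and 29.5 CPM in encapsome skin. Its groups overlap, with a log2 fold change of 0.06 (95% interval -0.17 to 0.28), which was -0.01 without clodrosome library B and -0.02 without encapsome library A. Gins3 differed most of the 4, with 9.70, 10.3 and 8.85 CPM in clodrosome skin, against 8.68, 6.11 and 6.05 CPM in encapsome skin. The groups of Gins3 did not overlap, but encapsome library A came close to clodrosome skin. Its log2 fold change was 0.47 (95% interval 0.10 to 0.83, edgeR adjusted p = 0.0679). Leaving out encapsome library A gave 0.66 and a call (edgeR adjusted p = 0.0166). Gins3 was also called by DESeq2 (adjusted p = 0.0345) and by edgeR with no filter on low counts (0.0216). Per length, Gins4 took 46.3% of the summed FPKM of GINS in clodrosome skin and 48.2% in encapsome skin, and Gins3 took 7.60% in clodrosome skin and 5.997% in encapsome skin.

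Among the 7 genes of polymerases and primase, 4 were called higher (Pole, Pole2, Prim1 and Pola2), none lower, and the median log2 fold change was 0.32. Pole, the catalytic subunit of the polymerase that copies the leading strand, had 38.0, 25.3 and 33.7 CPM in clodrosome skin, against 24.2, 17.7 and 20.7 CPM in encapsome skin. Clodrosome library B lay just above encapsome library A, and library B was the lowest of its group in both. The log2 fold change of Pole was 0.64 ± 0.159 (edgeR adjusted p = 0.0194), and its call was lost without clodrosome library A (adjusted p = 0.0608) or C (0.0647) and without encapsome library B (0.0843) or C (0.0650). Prim1, the catalytic subunit of primase, which makes the RNA primers, had 40.5, 52.5 and 45.5 CPM in clodrosome skin, against 35.7, 34.6 and 34.8 CPM in encapsome skin. The encapsome libraries were close together and all below clodrosome skin, with a log2 fold change of 0.39 ± 0.0979 (edgeR adjusted p = 0.0192). That call was lost without encapsome library B (adjusted p = 0.0719) or C (0.0649). Pole2, the second subunit of polymerase epsilon, and Pola2, the second subunit of polymerase alpha, had edgeR adjusted p-values of 0.0419 and 0.0415. Both lost the call in 5 of the 6 fits without a library, with adjusted p-values from 0.0784 to 0.149 for Pole2 and from 0.0528 to 0.158 for Pola2.

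Pola1, the catalytic subunit of polymerase alpha, was the lowest of these by fold change. It had 47.2, 59.0 and 52.5 CPM in clodrosome skin, against 50.4, 52.7 and 51.4 CPM in encapsome skin. The encapsome values lay within the clodrosome range, the log2 fold change was 0.04 (95% interval -0.17 to 0.24), and without clodrosome library B it was -0.04. Prim2, the other primase subunit, had a log2 fold change of 0.09 (95% interval -0.12 to 0.29). Within the complex of polymerase alpha and primase, Prim1 took 43.1%, 46.6% and 45.7% of the summed FPKM in clodrosome skin, against 40.4%, 40.8% and 40.3% in encapsome skin. Pola1 took 22.0%, 23.0% and 23.2% in clodrosome skin, against 25.04%, 27.2% and 26.1% in encapsome skin. The shares of both genes did not overlap between the groups, and they differed in opposite directions. Shares are parts of a whole, so a higher share of Prim1 by itself lowers the others. The level of Pola1 itself hardly differed (log2 fold change 0.04). Pold1, the catalytic subunit of polymerase delta, had groups that did not overlap but did not pass, with a log2 fold change of 0.27 (95% interval 0.04 to 0.49, edgeR adjusted p = 0.0905).

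The sliding clamp and its loader differed least of the 8 role groups by summed level, with a ratio of 1.10 and 1 of 5 genes called. Pcna, the clamp that tethers the polymerases, had the highest level per length of the 43 genes, with a mean of 84.6 FPKM in clodrosome skin and 75.0 FPKM in encapsome skin. It had 195, 221 and 193 CPM in clodrosome skin, against 187, 164 and 189 CPM in encapsome skin. The groups did not overlap, yet clodrosome library C and encapsome library C were close, and the log2 fold change of 0.17 ± 0.0883 (95% interval -0.02 to 0.37) was not called (edgeR adjusted p = 0.192). Rfc3, a subunit of the clamp loader, was called higher. It had 27.1, 29.7 and 24.9 CPM in clodrosome skin, against 21.9, 20.9 and 22.0 CPM in encapsome skin. The groups of Rfc3 did not overlap, and its log2 fold change was 0.33 ± 0.0899 (edgeR adjusted p = 0.0271). Its call was lost without each library except clodrosome C (adjusted p from 0.0516 to 0.105).

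Rfc2, a loader subunit of the same complex, had a fold change below 0. It had 52.4, 54.1 and 51.6 CPM in clodrosome skin, against 56.2, 53.1 and 57.1 CPM in encapsome skin. Encapsome library B fell within the clodrosome range, and the log2 fold change of -0.07 ± 0.0683 (95% interval -0.23 to 0.08) was not called. Per length, Rfc2 took 25.2%, 22.9% and 25.1% of the summed FPKM of Rfc2 to Rfc5 in clodrosome skin, against 27.7%, 27.8% and 28.7% in encapsome skin, while Rfc3 took 19.3%, 18.6% and 17.9% in clodrosome skin, against 15.9%, 16.2% and 16.4% in encapsome skin. The share of Rfc2 was thus lower, and that of Rfc3 higher, in every clodrosome library than in any encapsome library. As parts of a whole these shares depend on each other, and Rfc2 itself was not called. Rfc4 and Rfc5, the remaining small subunits, had log2 fold changes of 0.19 (95% interval -0.05 to 0.44) and 0.11 (95% interval -0.07 to 0.28). Exons of other genes cover 15.1% of the exonic bases of Rfc2, 12.7% of Rfc4 and 10.7% of Rfc5.

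Of the 3 genes that bind and join strands, Lig1 and Rpa2 were called higher. Lig1, the ligase that seals the fragments of the lagging strand, had 69.2, 52.5 and 52.3 CPM in clodrosome skin, against 43.6, 38.9 and 38.5 CPM in encapsome skin. All clodrosome libraries were higher, library A most, with a log2 fold change of 0.53 ± 0.117 (edgeR adjusted p = 0.0117). The call of Lig1 was lost without encapsome library B (adjusted p = 0.0539) or C (0.0510). Rpa2, the middle subunit of the protein that coats single-stranded DNA, had 35.2, 36.9 and 34.2 CPM in clodrosome skin, against 30.4, 23.7 and 27.7 CPM in encapsome skin. The groups were apart, with a log2 fold change of 0.38 ± 0.0986 (edgeR adjusted p = 0.0237). That call was lost without clodrosome library A (adjusted p = 0.0518) or C (0.0530), and without encapsome library B (0.0827) or C (0.0659). Fen1, the nuclease that trims flaps before ligation, had 2.43, 2.04 and 2.35 CPM in clodrosome skin, against 2.23, 1.56 and 2.13 CPM in encapsome skin. Its groups overlap, and its log2 fold change was 0.21 ± 0.212 (95% interval -0.26 to 0.69). With 84.2% of its exonic bases shared with another gene, the count of Fen1 covers a small part of the transcript and its level is uncertain.

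Nucleotide supply was represented by 5 genes, of which Tk1 and Rrm2 were called higher. In all 5 every clodrosome library was above every encapsome library. Tk1 (chr11:117815526-117826092), the thymidine kinase of S phase, had 60.3, 60.4 and 57.1 CPM in clodrosome skin, against 47.4, 43.6 and 48.1 CPM in encapsome skin, with a narrow spread in both groups. Its log2 fold change was 0.35 ± 0.0723 (edgeR adjusted p = 0.0079). Rrm2, the S phase subunit of ribonucleotide reductase, had 143, 112 and 112 CPM in clodrosome skin, against 102, 90.2 and 95.5 CPM in encapsome skin. Clodrosome library A was well above the other libraries, and the log2 fold change of Rrm2 was 0.35 ± 0.106 (edgeR adjusted p = 0.0401). It was 0.23 without clodrosome library A (adjusted p = 0.0909), and the call was lost without every other library except clodrosome B (adjusted p from 0.0573 to 0.145). Dut, which removes dUTP, had 34.5, 41.2 and 33.8 CPM in clodrosome skin, against 28.9, 33.5 and 31.8 CPM in encapsome skin. The highest encapsome library, B, was just below clodrosome library C, and the log2 fold change of 0.22 ± 0.0999 (95% interval -0.01 to 0.44) was not called (edgeR adjusted p = 0.155). Rrm1, the large subunit of the reductase, had a log2 fold change of 0.23 (95% interval 0.02 to 0.44), and Tyms, which makes thymidylate, one of 0.23 (95% interval 0.01 to 0.45). Rrm1, Tyms and Dut were called once the share of counts in rRNA genes was a term of the fit, with edgeR adjusted p-values of 0.0367, 0.0256 and 0.0124, while Rrm2 was not called in that fit (0.104).

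Genes that copy chromatin with the DNA were called higher in 3 of 4 cases, with a median log2 fold change of 0.40. Hells (chr19:38930915-38971051), a chromatin remodeller needed for DNA methylation, had 66.4, 77.3 and 66.5 CPM in clodrosome skin, against 47.6, 47.0 and 52.6 CPM in encapsome skin. The groups were far apart, with a log2 fold change of 0.51 ± 0.0863 (edgeR adjusted p = 0.0031). Uhrf1, which brings the maintenance methyltransferase to newly copied DNA, had 87.6, 67.9 and 72.2 CPM in clodrosome skin, against 57.5, 57.0 and 51.9 CPM in encapsome skin. Every clodrosome library was higher, with a log2 fold change of 0.45 ± 0.102 (edgeR adjusted p = 0.0121), and the call was lost without encapsome library C (adjusted p = 0.0559). Of the histone chaperone CAF-1, the subunit Chaf1b was called, with a log2 fold change of 0.35 ± 0.104 (edgeR adjusted p = 0.0391), but not without 5 of the 6 libraries in turn (adjusted p from 0.0507 to 0.145). The large subunit Chaf1a had 22.0, 22.7 and 18.0 CPM in clodrosome skin, against 18.5, 17.03 and 19.6 CPM in encapsome skin. Clodrosome library C was within the encapsome range, and the log2 fold change of Chaf1a was 0.19 ± 0.112 (95% interval -0.06 to 0.44). Other genes cover 52.5% of its exonic bases.

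The 3 genes that control entry into S phase did not move together. Ccne1 (chr7:38097984-38107534), cyclin E1, had 25.1, 24.9 and 26.1 CPM in clodrosome skin, against 18.6, 17.9 and 18.5 CPM in encapsome skin. Both groups were tight and far apart, with a log2 fold change of 0.47 ± 0.0796 (edgeR adjusted p = 0.0033). Ccne2, cyclin E2, had overlapping groups and a log2 fold change of 0.20 (95% interval -0.08 to 0.48). E2f1, an activator of S phase genes, had 14.1, 13.9 and 12.2 CPM in clodrosome skin, against 16.9, 17 and 15.4 CPM in encapsome skin. All clodrosome libraries of E2f1 were lower than all encapsome libraries, opposite to most of the genes. Its log2 fold change was -0.30 ± 0.103 (95% interval -0.53 to -0.07, edgeR adjusted p = 0.0673). It was not called at the full depth. In 1 random thinning of every library to the depth of the shallowest it was called lower (log2 fold change -0.34, edgeR adjusted p = 0.0414). Both adjusted p-values lie near the threshold, and no further random thinning was run.

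**Figure D3:**
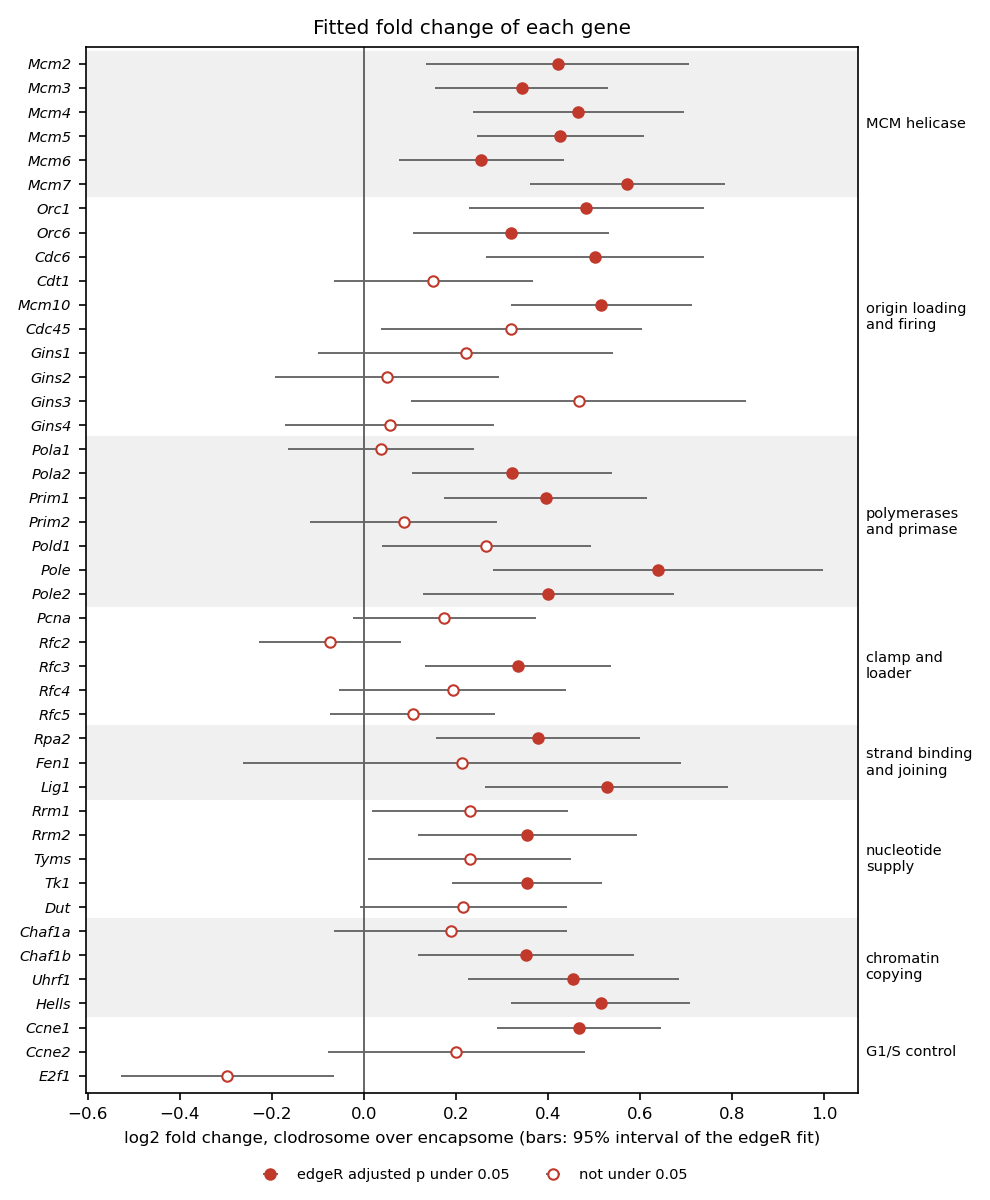
Log2 fold change of clodrosome over encapsome for each of the 43 genes, with bars for the 95% interval of the edgeR fit and filled points for the 23 genes with an adjusted p under 0.05. Points run from -0.30 for E2f1 to 0.64 for Pole, and all 6 MCM subunits are filled while the 4 GINS subunits are open.

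The spread of a gene within a group was of the same order as the difference between the groups. The ratio of the highest to the lowest library had a median of 1.204 over the 43 genes in clodrosome skin (1.03 to 1.501) and of 1.13 in encapsome skin (1.03 to 1.44), beside a ratio of 1.24 between the groups for the summed level. Pole had the widest clodrosome ratio and Gins3 the widest encapsome ratio. In clodrosome skin, library B was the highest for 26 genes and library A for 15, and library C was the lowest for 19. Library B was the lowest of the clodrosome libraries for Mcm2, Mcm4 and Pole and the highest for Gins1, Prim1 and Rrm1. In encapsome skin, library A was the highest for 25 genes and library B the lowest for 29. The first principal component of the 43 genes held 74.7% of their variance and placed the clodrosome libraries at -1.39, -1.13 and -0.89 and the encapsome libraries at 0.73, 1.601 and 1.08. The groups were apart on that component, as they were on the first component of all genes tested (53.8% of the variance). The separation is therefore not particular to the 43 genes.

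When 1 library was left out, the number of genes called changed more than the direction did. These fits also have fewer libraries, so a call can be lost while the fold change stays. Without encapsome library C the call of Mcm3 was lost at a log2 fold change of 0.35, beside 0.34 with all libraries. For Mcm2 without clodrosome library A the fold change itself was smaller, 0.27 beside 0.42. Without 1 of the clodrosome libraries, 14 (without A), 18 (without B) and 13 (without C) of the 43 genes were called higher. Of all genes in the same fits, 6.62%, 10.6% and 5.09% were called higher. Without 1 of the encapsome libraries, 16 (without A), 9 (without B) and 10 (without C) were called, against 6.08%, 4.46% and 5.07% of all genes. The 9 genes without encapsome library B are 20.9% of the 43, against 4.46% of all genes called higher in that fit. Over all genes tested, 1692 were called higher with all libraries, and the smallest such number was 821, without encapsome library B. It was 933 without clodrosome library C, 1122 without encapsome library A and 938 without encapsome library C. Without clodrosome library A it was 1221, and without clodrosome library B it rose to 1964. In each of the 6 fits, 39 to 41 of the 43 fold changes were above 0. Mcm4, Mcm5, Mcm7, Cdc6, Mcm10, Tk1, Hells and Ccne1 were called in every one of these fits and under every other setting run, 8 of the 23. With the share of counts in rRNA genes as a term, 21 genes were called, and Mcm2, Pola2, Rpa2, Rrm2 and Chaf1b were no longer among them (edgeR adjusted p from 0.0508 to 0.114). The log2 fold change of Mcm2 was 0.25 in that fit. With every library thinned to the shallowest in 1 random draw, 21 genes were called higher, without Mcm6 (edgeR adjusted p = 0.0601) and Orc6 (0.0511).

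**Figure D4:**
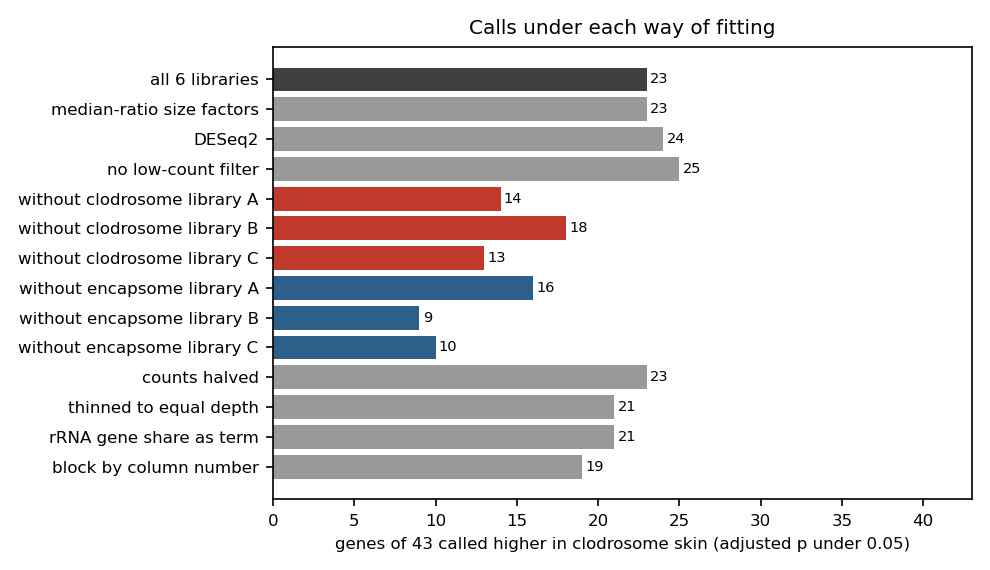
Number of the 43 genes called higher in clodrosome skin, as bars from 0, for the fit on all 6 libraries and for each other way of fitting; red bars leave out a clodrosome library and blue bars an encapsome library. The bars reach 23 with all libraries, 9 without encapsome library B, and 25 with no filter on low counts.

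Other genes of the same processes were read from lists of related genes. Of 35 further genes of the replication machinery, 34 were tested, 7 were called higher (20.6%) and 0 lower, with a median log2 fold change of 0.16. Over all genes tested 9.41% were called higher and 13% lower, and the counts of this list and the following ones stand beside those shares. Recql4, a helicase of origin firing, had 7.41, 7.20 and 7.27 CPM in clodrosome skin, against 4.39, 5.04 and 4.80 CPM in encapsome skin. Its groups were well apart, with a log2 fold change of 0.62 ± 0.128 (edgeR adjusted p = 0.00812). Wdhd1, which links the helicase to polymerase alpha, had 34.2, 35.4 and 31.4 CPM in clodrosome skin, against 27.1, 24.9 and 24.7 CPM in encapsome skin, again without overlap (log2 fold change 0.40 ± 0.0828, edgeR adjusted p = 0.00869). Of 11 further genes of chromatin copying, 4 were called higher, among them Cdca7, the partner of Hells. Cdca7 had 50.2, 48.9 and 45.7 CPM in clodrosome skin, against 39.4, 37.9 and 36.7 CPM in encapsome skin (log2 fold change 0.35 ± 0.0732, edgeR adjusted p = 0.00922). Cdca7l, its paralog, had 20.8, 19.3 and 19.99 CPM in clodrosome skin, against 16.1, 13.9 and 15.3 CPM in encapsome skin. Neither gene had overlapping groups. Cdca7l had a log2 fold change of 0.41 ± 0.0953 (edgeR adjusted p = 0.0142), with the call lost without encapsome library B (adjusted p = 0.0697). The 7 calls of replication machinery became 4, 4, 3 and 4 without clodrosome library A, clodrosome C, encapsome B and encapsome C, and the 4 of chromatin copying became 2, 2, 1 and 2. Over all genes the 1692 higher calls became 1221, 933, 821 and 938 in the same fits.

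Nucleotide metabolism held genes called in both directions. Of 18 further genes of nucleotide supply, 6 were called higher and 1 lower. Shmt1, which supplies folate carbon for thymidylate synthesis, had 55.7, 45.7 and 54.2 CPM in clodrosome skin, against 36.5, 30.4 and 33.3 CPM in encapsome skin. All clodrosome values were higher, with a log2 fold change of 0.64 ± 0.101 (edgeR adjusted p = 0.0023). Samhd1, which breaks down deoxynucleotides and is abundant in myeloid cells, was the 1 called lower, with 208, 208 and 182 CPM in clodrosome skin, against 280, 316 and 293 CPM in encapsome skin. Every clodrosome library was lower (log2 fold change -0.57 ± 0.0856, edgeR adjusted p = 0.0017). The macrophage list was lower in the same libraries, and its part in the result for Samhd1 was not tested. In place of the 6 higher calls, 2 or 3 genes were called higher without any 1 library other than clodrosome B.

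Of 15 drivers of the passage into S phase, 5 were called higher and 0 lower, with a median log2 fold change of 0.23. Ccnd1, cyclin D1, had 128, 96.1 and 113 CPM in clodrosome skin, against 80.5, 65.4 and 78.8 CPM in encapsome skin. Mybl2, a transcription factor of dividing cells, had 34.2, 28.1 and 31.7 CPM in clodrosome skin, against 22.2, 19.7 and 21.6 CPM in encapsome skin. Neither gene had overlapping groups, with log2 fold changes of 0.59 ± 0.118 for Ccnd1 (edgeR adjusted p = 0.00744) and 0.57 ± 0.0974 for Mybl2 (edgeR adjusted p = 0.00336). Of 14 brakes tested, 1 was called higher (7.14%) and 2 lower (14.3%), near the 9.41% and 13% of all genes. The 3 called genes are given for their own values. Rb1, the retinoblastoma protein that holds E2F in check, had 40.1, 38.0 and 41.5 CPM in clodrosome skin, against 51.3, 49.7 and 48.5 CPM in encapsome skin, lower in each clodrosome library (log2 fold change -0.32 ± 0.0711, edgeR adjusted p = 0.0115). Cdkn1c, the inhibitor p57, was also lower, with 5.56, 3.98 and 6.44 CPM in clodrosome skin, against 13.1, 6.89 and 9.40 CPM in encapsome skin (log2 fold change -0.87 ± 0.246, edgeR adjusted p = 0.0324). The call of Cdkn1c was lost without clodrosome library A (adjusted p = 0.0681) or B (0.0669) and without encapsome library A (0.109) or C (0.0738). The inhibitor p21, Cdkn1a, was called higher, with 237, 197 and 248 CPM in clodrosome skin, against 182, 163 and 174 CPM in encapsome skin. Its log2 fold change was 0.40 ± 0.0976 (edgeR adjusted p = 0.0183), and the call was lost without clodrosome library C (adjusted p = 0.0869) or encapsome library B (0.0829) or C (0.0634). In place of 5 drivers, 2 or 3 were called without any 1 library other than clodrosome B.

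Of 25 genes of the fork checkpoint and repair, 9 were called higher and 0 lower, with a median log2 fold change of 0.28. Msh6, a mismatch repair protein, had 55.2, 56.6 and 58.4 CPM in clodrosome skin, against 43.6, 45.1 and 44.6 CPM in encapsome skin (log2 fold change 0.35 ± 0.0668, edgeR adjusted p = 0.0056). The groups of Msh6 were apart. Of 25 genes of mitosis, the stage after replication, 10 were called higher (40% beside 9.41% of all genes) and 0 lower, 25 had a fold change above 0, and the median log2 fold change was 0.24. Bub1b, a checkpoint kinase of the spindle, had 67.2, 63.1 and 65.5 CPM in clodrosome skin, against 54.5, 49.0 and 47.7 CPM in encapsome skin (log2 fold change 0.37 ± 0.0764, edgeR adjusted p = 0.00795). Birc5, survivin, had 56.9, 64.2 and 57.3 CPM in clodrosome skin, against 46.2, 45.05 and 49.6 CPM in encapsome skin. Its log2 fold change was 0.34 ± 0.0792 (edgeR adjusted p = 0.0142), and the call was lost without encapsome library B (adjusted p = 0.0659). The 9 calls of fork and repair genes became 5, 5, 3 and 2, and the 10 of mitosis 5, 4, 1 and 2, without clodrosome library A, clodrosome C, encapsome B and encapsome C. The 1 mitosis gene called without encapsome library B is 4% of the list, near the 4.46% of all genes in that fit. Whether the 43 genes differ from the mitosis list was not tested.

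**Figure D5:**
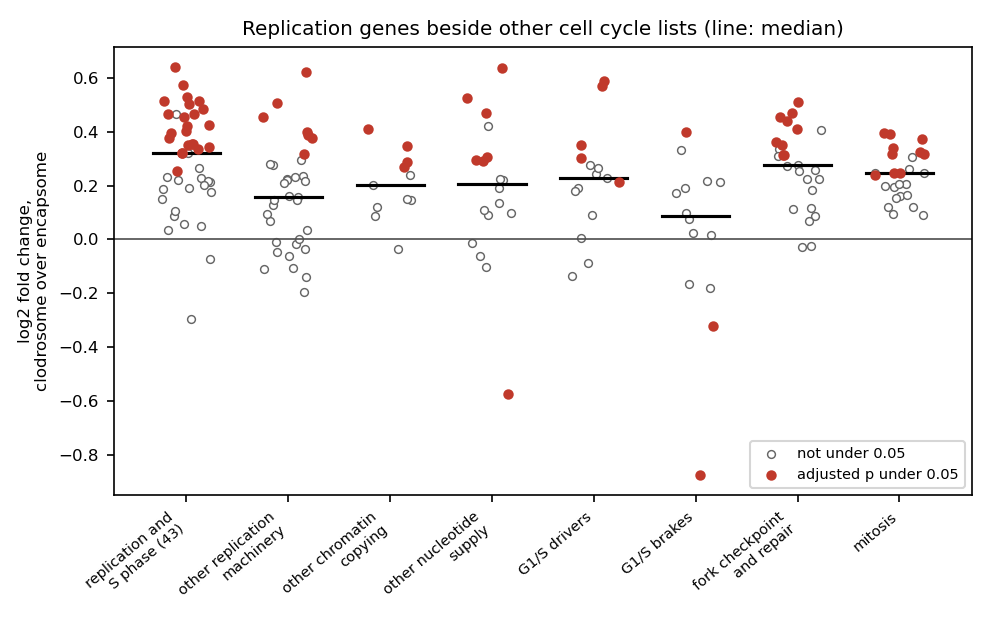
Log2 fold change of clodrosome over encapsome for the 43 genes and for 7 further lists of the cell cycle, 1 point for each gene tested, filled where the edgeR adjusted p was under 0.05, with lines at the medians. The median is 0.32 for the 43 genes, 0.24 for mitosis and 0.09 for the brakes of S phase entry.

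Markers of cell types that could hold dividing cells differed between the same libraries. Of 8 genes of basal keratinocytes, 5 were called higher, and their summed level was 23880, 24670 and 24280 CPM in clodrosome skin, against 20310, 16310 and 18010 CPM in encapsome skin, a ratio of 1.33 beside 1.24 for the 43 replication genes. The sums did not overlap, but Krt14 and Krt5 made up most of them (means of 15680 and 6055 CPM in clodrosome skin). Krt14 (edgeR adjusted p = 0.0693), Itga6 and Itgb4 were not called. The 1.33 is thus mostly a ratio of these keratins. Of 6 suprabasal keratinocyte genes, 4 were called lower. The 6 genes summed to 1346, 1808 and 1703 CPM in clodrosome skin and to 2137, 1902 and 1776 CPM in encapsome skin, and these sums overlap. Krtdap, which was not called, made up most of these sums (means of 1217 CPM in clodrosome skin and 1175 CPM in encapsome skin). The median log2 fold change of the 6 genes was -1.23. All 5 fibroblast genes were called lower. Their summed level was 2438, 1375 and 1957 CPM in clodrosome skin, against 5414, 5554 and 4832 CPM in encapsome skin. Of 7 listed genes of the hair matrix and shaft, 4 were tested and 1 was called higher, at summed levels of 17.8, 16.9 and 17.2 CPM in clodrosome skin and 13.4, 15.5 and 13.1 CPM in encapsome skin. Of 4 endothelial genes, 2 were called higher. Of 5 myoblast genes, 3 were called higher, with summed levels of 14.9, 12.1 and 11.3 CPM in clodrosome skin, against 5.07, 2.38 and 4.64 CPM in encapsome skin. Of 5 neutrophil genes 1 was called higher, with overlapping sums, and of 6 T cell genes 0 were called by edgeR, with 2 higher and 1 lower at an unadjusted p under 0.05. Over all genes 9.41% were called higher and 13% lower, and a count of 0 or 1 in such short lists is near what those shares give. The part of these cell types in the result for the replication genes was not tested.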

How the data were processed

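Polyadenylated RNA of whole mouse dorsal skin was measured in 6 libraries, 3 per group. The submitters' processing notes name HISAT2 2.2.1 and featureCounts 1.6.2 and, beside them, Trimmomatic 0.36, DESeq2 1.34.0 and StringTie 2.2.1, on build mm10. The deposited values are raw counts per gene, made by the authors with featureCounts, per the file headers, without options for pairs or strand. Between 63.6% and 69.7% of counts from 1 to 20 were even, so each read end was probably counted. Reads in exons shared with another gene go uncounted. Column names gave the group but not the titled sample, and libraries are called A, B and C in column order; there were 0 further sample columns. Symbols were found for 99.4% of identifiers.

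Genes were kept by filterByExpr (minimum count 10, total 15). Counts were tested with edgeR 4.0.16 (quasi-likelihood, TMM, group as the only term) in R 4.3.3, adjusted by Benjamini-Hochberg over 17988 genes, threshold 0.05, after the script was tested on simulated data. DESeq2 1.42.0 was an alternative, with other size factors, no filter, halved counts, thinned counts, an rRNA term, a block, and each library left out. Intervals are 95%. CPM and FPKM were computed here. Pairs of libraries within a group differed by a chi-square of 9.31 to 48.6 per gene, so none looked like 1 library deposited under 2 names. A count of 0 allows up to 6 counts, 0.0502 to 0.228 CPM, for counting error only.

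The 43 genes, the other lists and the tests were chosen with earlier results of these data known. Given in every library were, in each of the 8 role groups, the 2 genes with the smallest p and the one with the lowest fold change, any gene called lower or turned by leaving out 1 library, and, of other lists, the 2 called genes with the smallest p and any called against the majority. A gene that this rule takes from the list of fork checkpoint and repair genes is not reported here. Mcm2, Mcm3, Mcm4, Gins3 and Cdkn1c were added after their values were seen. Chtf8 and Cdkn2a did not pass the filter, and of the hair list Shh and Krt35 did not pass and Krt85 had no identifier.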

Additional observations from a re-analysis of the deposited data

How the results depend on the processing

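With edgeR on all libraries 23 of the 43 genes were called higher; 9 to 18 were called when 1 library was left out, 23 with median-ratio size factors or halved counts, 24 with DESeq2, 25 with no filter, 21 thinned or with the rRNA term, and 19 with the replicate block. Over the 6 fits without 1 library (lowest and highest), further replication genes called higher numbered 3 to 7, chromatin copying 1 to 4, nucleotide supply 2 to 6, drivers of S phase entry 2 to 7, its brakes 0 to 2 higher and 1 to 2 lower, fork and repair 2 to 9, mitosis 1 to 8 and all genes 821 to 1964 higher. Thinning, run as 1 random draw, called 1 of the 43 genes lower (E2f1). The drivers called higher were 3 without the filter; the brakes called higher were 2 with DESeq2, no filter, halved or thinned counts and the block, and those called lower 1 when thinned and 1 with the block. The block turned Gins2 to -0.067, Gins4 to -0.090 and Pola1 to -0.065, and leaving out libraries moved Gins2 between -0.038 and 0.10, Gins4 between -0.016 and 0.12 and Pola1 between -0.044 and 0.12. The cause was not tested. The block used the numbers in the column names, which 2 pairs share. Deviations within these pairs correlated at -0.04 and -0.05, and those of the other combinations at -0.10 to 0.07. With so few libraries this cannot show whether the pairs share more than a number. It was added after the data were seen. Fen1, with few counted bases, had the widest interval of the 43 genes.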
